A study of Mus musculus with 5 samples.

Results

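The 10 genes described here (Bpifa1, Bpifb1, Reg3g, Pglyrp1, Ltf, Lcn2, Lyz2, Dmbt1, Sftpd and Sftpa1) encode secreted proteins of airway epithelium that bind or kill microbes. They were chosen by name, and all 10 were found among 30907 mouse genes in droplet single-cell RNA counts from mouse trachea. The donor-derived group held GFP-positive live cells from adult wild-type 129X1/S1 mice that had been given 2% polidocanol, a detergent that strips the tracheal epithelium, and 5 hours later 6000000 mouse embryonic stem cell-derived basal cells (iBCs) into the trachea. The endogenous group held GFP-negative live cells of the same tracheas. One recipient was taken at 40 days and the other at 56 days, so that each group had 2 libraries and the 2 libraries of a day came from 1 mouse. The control was 1 library of live cells, sorted without a GFP gate, from a mouse given neither injury nor cells, which the labels put on the same background and sex. All recipients had thus been injured, and the design holds no injured trachea without a transplant.

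Airway surface liquid is kept nearly sterile by proteins that club and goblet cells secrete continuously and by others that epithelial cells add after contact with microbes or cytokines. Some of them act on membranes or cell walls, such as lysozyme, Reg3 lectins and peptidoglycan recognition proteins. Lactoferrin and lipocalin 2 keep iron from bacteria, and the collectins SP-A and SP-D coat microbes for uptake. Interleukin 17, interleukin 22 and Toll-like receptor signals, which act through NF-kappaB, C/EBP and STAT factors, are known inducers of several of these genes.

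Upstream sequence is shown for Bpifa1, Bpifb1 and Reg3g, the 3 genes of this set that were lower in donor-derived secretory-like cells and whose RefSeq start lay at the start of the annotated gene. Each line gives the 250 bases before the start, 5′ to 3′ on the gene's strand, from RefSeq on build GRCm38.p6. Capitals mark matches on either strand to the NF-kappaB pattern, which is GGG, any 5 bases and CC, and 2 overlapping matches run together in the first capital stretch of Bpifb1. The Bpifa1 window is chr2:154142630-154142879 on the plus strand, that of Bpifb1 is chr2:154190568-154190817 on the plus strand and that of Reg3g is chr6:78468875-78469124 on the minus strand.
Bpifa1: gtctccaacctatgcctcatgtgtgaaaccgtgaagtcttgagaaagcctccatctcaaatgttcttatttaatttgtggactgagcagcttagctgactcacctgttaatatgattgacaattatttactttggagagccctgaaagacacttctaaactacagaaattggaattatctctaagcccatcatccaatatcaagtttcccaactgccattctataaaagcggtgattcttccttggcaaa
Bpifb1: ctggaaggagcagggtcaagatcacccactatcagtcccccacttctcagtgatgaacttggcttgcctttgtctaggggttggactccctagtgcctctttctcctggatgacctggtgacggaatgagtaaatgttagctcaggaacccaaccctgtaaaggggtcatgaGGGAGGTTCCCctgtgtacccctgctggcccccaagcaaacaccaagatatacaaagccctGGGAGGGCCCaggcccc
Reg3g: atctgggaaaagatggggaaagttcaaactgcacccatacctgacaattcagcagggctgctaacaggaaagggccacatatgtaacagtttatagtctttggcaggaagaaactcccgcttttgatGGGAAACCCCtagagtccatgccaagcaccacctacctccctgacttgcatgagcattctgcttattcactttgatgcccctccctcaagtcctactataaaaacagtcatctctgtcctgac
Promoter sequence was matched for 8 of the 10 genes, all but Dmbt1 and Sftpd. The NF-kappaB pattern was found in 5 of these 8 (Bpifb1, Reg3g, Pglyrp1, Ltf and Lcn2), and 45.8% of all 32851 promoter windows of this length hold it. The C/EBP pattern TTGCNNAA was found in Ltf and Lcn2 (9.56% of all windows) and the STAT pattern TTCNNNGAA in none of the 8 (7.02% of all windows). In the printed windows, Bpifa1 held no match to the 3 patterns, the Reg3g match began 123 bases before the start, and the Bpifb1 matches began 78, 77 and 17 bases before it. These are matches of letters within 250 bases, not measured binding.

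On GRCm38, Bpifa1 (chromosome 2, 154142880 to 154149219) lies 41.6 kb from Bpifb1 (154190818 to 154220369), and Sftpa1 lies 35.8 kb from Sftpd on chromosome 14. Lyz2 has a near-identical neighbour, Lyz1, and the counting could divide reads between them, so that Lyz2 values are uncertain to that extent. Lyz1 itself had 44.1 and 14.8 CPM in donor-derived secretory-like cells, 5.94 and 168 CPM in endogenous ones and 75.9 CPM in the control, CPM being UMIs of a gene per 1000000 mouse UMIs of a class in a library.

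The 5 libraries held 808 to 1743 barcodes and 16580940 to 25569394 UMIs, and 6554 cells remained after filtering. Cells were clustered across libraries and named "-like" from marker genes, of which none was among the 10. Secretory-like cells numbered 647 and 472 in the donor-derived libraries of day 40 and day 56, 311 and 232 in those of endogenous cells and 356 in the control. They lay in different clusters by origin: clusters 3 and 4 held most donor-derived cells and clusters 1 and 11 most endogenous and control cells. Clustering without the 10 genes kept this division, but gave the hillock-like name to a further cluster of 198 cells. Of these, 178 were donor-derived cells of day 40, at 425 CPM of Bpifb1 and 3.30 CPM of Bpifa1. Basal-like cells numbered 720, 1097, 344, 231 and 69 in the same order of libraries, and ciliated-like cells 41, 117, 231, 194 and 154. Fold changes come from edgeR's quasi-likelihood test on the summed counts, with TMM scaling, and are log2 values with an adjusted p over all genes tested. Scaling by total UMIs alone moved the median gene by 0.36 (log2) in secretory-like cells, 0.13 in basal-like and 0.10 in ciliated-like cells.

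Donor-derived secretory-like cells made far less Bpifa1, Reg3g and Lyz2 RNA and less Bpifb1 than endogenous ones, and more Sftpd. Of the 10 genes, 4 were lower, against 8.65% of the 11135 genes tested, and 1 was higher, against 7.09%. The median log2 fold change of the 10 was -1.73, beside -0.01 for all genes tested. The 10 genes together took 11630 and 5628 CPM in the donor-derived libraries, 61143 and 44016 CPM in the endogenous ones and 85670 CPM without injury. Most of that gap was Bpifa1.

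**Figure D1:**
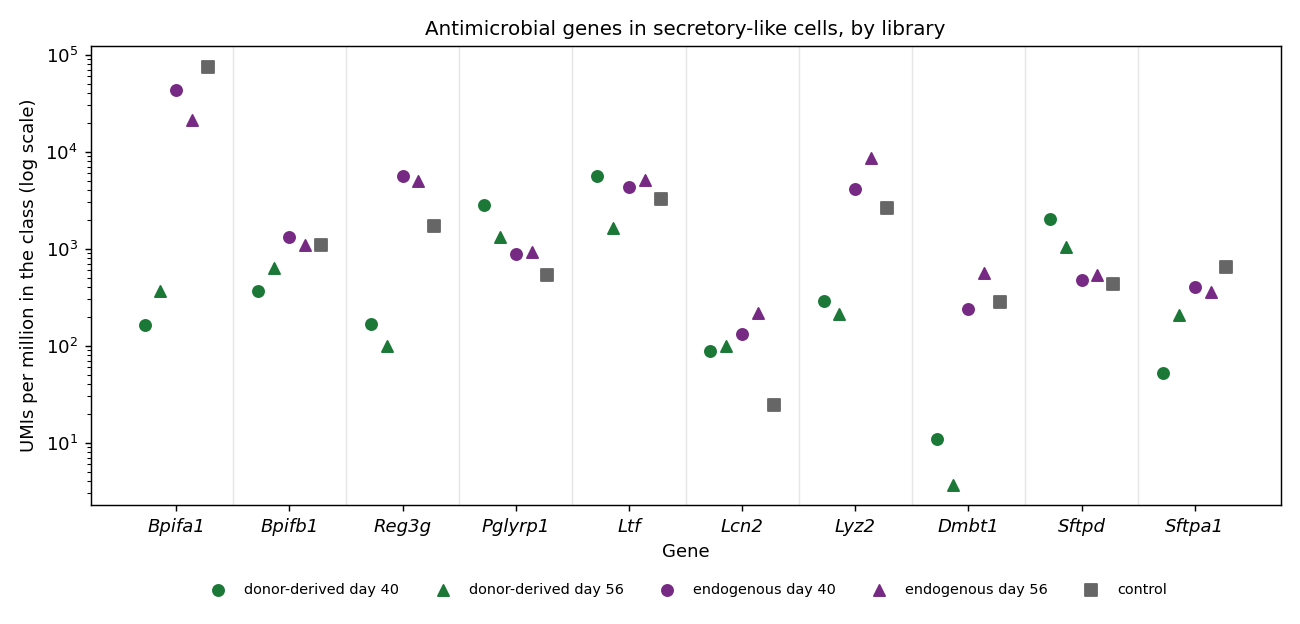
Level of each gene in secretory-like cells, in CPM on a log scale, with 1 point per library: donor-derived day 40 and 56, endogenous day 40 and 56, and control. Bpifa1, Bpifb1, Reg3g, Lyz2, Dmbt1 and Sftpa1 lie lowest in both donor-derived libraries, and Pglyrp1 and Sftpd lie highest in them.

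Bpifa1 encodes SPLUNC1, a bactericidal/permeability-increasing fold protein that club cells secrete in bulk and that acts on bacterial membranes and surface tension. It had 163 and 364 CPM in donor-derived secretory-like cells of day 40 and day 56, 43517 and 21490 CPM in endogenous ones and 75081 CPM in the control, so that the donor-derived libraries lay far below all others. The log2 fold change was -7.26 ± 0.71 (SE, n = 2 libraries per group, adjusted p = 0.00097 by edgeR). A Bpifa1 UMI was found in 3.55% and 1.69% of donor-derived cells, 97.4% and 91.4% of endogenous cells and 99.7% of control cells, at median depths of 13872, 16200, 18226, 20974 and 12440 UMIs. After each cell was thinned to 5000 UMIs the shares were 1.90%, 0.870%, 95%, 88.4% and 97.5%, with 631, 460, 300, 232 and 356 cells deep enough. T or NK-like cells, which should lack the gene, had a Bpifa1 UMI in 30.6% and 20.3% of cells of the endogenous libraries at median depths of 5588 and 5410 UMIs, so free Bpifa1 RNA was present in those libraries. The donor-derived libraries held no T or NK-like cells.

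Nearly all of the Bpifa1 counts in donor-derived secretory-like sums came from 4 cells per library. In the clustering that left the 10 genes out, these cells lay in clusters where at least 90% of the recipients' cells were endogenous. They gave 1557 of 1601 Bpifa1 UMIs on day 40 (97.3%) and 2942 of 2947 on day 56 (99.8%), and 1 day 56 cell alone held 2704. An EGFP UMI was found in 1 of the 4 cells of each day, against 56.8% and 48.1% of the other donor-derived secretory-like cells, and their median depth was 24396 and 30837 UMIs, against 13828 and 16117. The other 643 and 468 donor-derived cells had 44 and 5 Bpifa1 UMIs, or 4.51 and 0.627 CPM. Without the cells that lay in clusters of the other group, an alternative chosen after seeing the data, the log2 fold change of Bpifa1 was -13.99 (adjusted p = 0.000504 by edgeR). Whether these cells are doublets or endogenous cells that passed the gate was not tested.

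**Figure D2:**
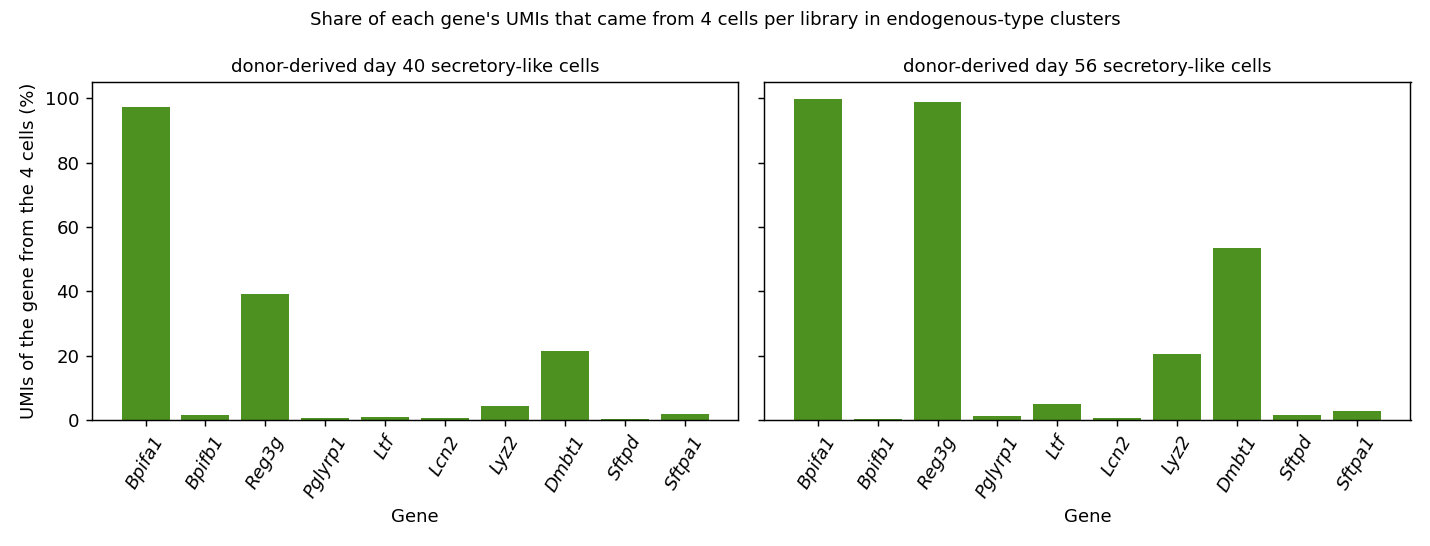
Share of each gene's UMIs in donor-derived secretory-like cells (%) that came from the 4 cells per library lying in endogenous-type clusters, for day 40 (left) and day 56 (right). The share is 97.3% and 99.8% for Bpifa1 and 39.0% and 99.0% for Reg3g, and 0.44% and 1.19% for Pglyrp1.

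Donor-derived cells were also divided by the reporter transcript. On day 56 the 226 secretory-like cells with an EGFP UMI had 2 Bpifa1 UMIs in all (0.492 CPM) and 1 Reg3g UMI, but 1296 CPM of Pglyrp1 and 1625 CPM of Ltf. On day 40 the 366 such cells had 74.0 CPM of Bpifa1, 176 CPM of Reg3g, 2834 CPM of Pglyrp1 and 5694 CPM of Ltf. In the 281 and 246 cells without an EGFP UMI, Pglyrp1 had 2812 and 1367 CPM and Ltf 5613 and 1629 CPM. Both genes were thus at nearly the same level whether or not the transcript was seen. Without an EGFP UMI, Reg3g was at 151 and 200 CPM, and Bpifa1 at 290 and 732 CPM, from 7 and 6 cells. The 4 cells per library described above were kept here and held nearly all Bpifa1 UMIs, so the Bpifa1 values mostly reflect those cells.

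Bpifb1 encodes a longer protein of the same fold, made by goblet and mucous secretory cells. It had 365 and 633 CPM in donor-derived secretory-like cells, 1319 and 1104 CPM in endogenous ones and 1084 CPM in the control, with no overlap between donor-derived and endogenous libraries. The log2 fold change was -1.61 ± 0.35 (SE, adjusted p = 0.030 by edgeR), much smaller than for its neighbour Bpifa1. A Bpifb1 UMI was found in 23.6% and 30.5% of donor-derived secretory-like cells, against 62.4% and 52.6% of endogenous ones and 54.2% in the control. Its call was lost without either endogenous library, at an adjusted p of 0.138 without day 40 and 0.0909 without day 56. The call was also lost with clustering at resolution 0.5 (0.294) or 2.0 (0.0796) and with the stricter cell filter (0.0761). The summed level of 7 goblet markers was also lower in donor-derived secretory-like cells, at 170 and 165 CPM. The sum was 782 and 729 CPM in endogenous ones and 349 CPM in the control. Agr2 alone gave 437 and 369 CPM of the endogenous sums. Single markers differed: Spdef was lower on both days, but Gp2 was not. On day 40 Gp2 was at 41.6 CPM with donor origin and 39.5 CPM without, and on day 56 at 11.2 against 66.7 CPM. The control sum lay well below both endogenous ones, whereas control Bpifb1 was near the day 56 endogenous level. Tff3 was at 0 in all 5 libraries, and the part of goblet cells in the Bpifb1 and Dmbt1 differences was not tested.

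Reg3g encodes a C-type lectin that kills Gram-positive bacteria by binding peptidoglycan. It had 166 and 99.4 CPM in donor-derived secretory-like cells, 5669 and 4982 CPM in endogenous ones and 1729 CPM in the control. The log2 fold change was -5.72 ± 0.32 (SE, adjusted p = 2.12e-05 by edgeR), and the groups lay more than 10-fold apart. The 4 cells described above held 39.0% of its day 40 and 99.0% of its day 56 UMIs. Without the cells in clusters of the other group, the 2 donor-derived libraries stood at 102 and 1.0 CPM, and the fold change of -7.17 had an adjusted p of 0.254.

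Lyz2, a lysozyme that cleaves bacterial cell walls and is best known from macrophages, had 289 and 214 CPM in donor-derived secretory-like cells, 4157 and 8722 CPM in endogenous ones and 2605 CPM in the control. The log2 fold change was -5.07 ± 0.45 (SE, adjusted p = 0.00050 by edgeR), and it was -5.24 without the cells in clusters of the other group (adjusted p = 0.00075). A Lyz2 UMI was found in 22.4% and 14.2% of donor-derived secretory-like cells, against 71.7% and 84.1% of endogenous ones and 54.2% in the control. In this class the 8 macrophage markers summed to 8.13 and 3.58 CPM for donor-derived, 120 and 77.5 CPM for endogenous and 150 CPM for control cells. Most of the endogenous and control sums was Apoe, with 113, 75.2 and 147 CPM, and Adgre1 and Mrc1 were at 0 in all 5 libraries. The part of macrophage RNA in the Lyz2 difference was not tested. Leaving out either donor-derived library ended the calls of Bpifa1 (adjusted p = 0.235 without day 40 and 0.172 without day 56) and of Lyz2 (0.306 and 0.260), with changes of -6.72 and -8.09 for Bpifa1 and -5.17 and -4.95 for Lyz2, which kept their direction. Clustering at resolution 0.5 also ended the Lyz2 call (0.127).

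Dmbt1 encodes a large scavenger receptor cysteine-rich glycoprotein that agglutinates bacteria. It had 11 and 3.71 CPM in donor-derived secretory-like cells, 240 and 561 CPM in endogenous ones and 282 CPM in the control. The groups did not overlap, but the log2 fold change of -6.16 ± 0.90 missed the threshold (SE, adjusted p = 0.052 by edgeR). DESeq2 gave an adjusted p of 4.16e-11 for it, and edgeR with the recipient as a block 0.267.

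Of the surfactant collectins, Sftpd passed the test and Sftpa1 did not. Sftpd, encoding SP-D, had 2011 and 1047 CPM in donor-derived secretory-like cells, 480 and 533 CPM in endogenous ones and 435 CPM in the control. The log2 fold change was 1.19 ± 0.26 (SE, adjusted p = 0.018 by edgeR), and it was lost without the endogenous library of day 40 (adjusted p = 0.264) or of day 56 (0.166). Sftpa1, encoding SP-A, had 52.5 and 209 CPM in donor-derived cells, 405 and 356 CPM in endogenous ones and 648 CPM in the control, and its change of -1.84 ± 0.97 was not called (SE, adjusted p = 0.38 by edgeR). Both genes are best known from alveolar type 2 cells. Of 6 other markers of that type, the sum was 212 and 371 CPM for donor-derived, 344 and 246 CPM for endogenous and 394 CPM for control secretory-like cells, and Sftpc, the defining one, had 9.35 and 43.9 CPM in donor-derived cells, 0 and 0.567 CPM in endogenous ones and 0 CPM in the control. The part of that cell type in the collectin values was not tested.

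Pglyrp1, a peptidoglycan recognition protein that kills bacteria at the cell wall, was abundant in both groups. It had 2825 and 1331 CPM in donor-derived secretory-like cells, 875 and 918 CPM in endogenous ones and 543 CPM in the control, and was found in 98.8% and 98.1% of donor-derived cells. Its log2 fold change of 0.81 ± 0.29 was not called (SE, adjusted p = 0.12 by edgeR). Ltf, the iron-binding protein lactoferrin, had 5661 and 1627 CPM in donor-derived cells, 4347 and 5133 CPM in endogenous ones and 3239 CPM in the control. The 2 donor-derived libraries lay on both sides of the endogenous ones, and the change of -0.81 ± 0.54 was not called (SE, adjusted p = 0.41 by edgeR).

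Lcn2, which binds bacterial siderophores, had 87.7 and 98.9 CPM in donor-derived secretory-like cells, 134 and 217 CPM in endogenous ones and 24.5 CPM in the control. Both endogenous libraries lay above both donor-derived ones and the control lay lowest. The log2 fold change of -1.27 ± 0.30 missed the threshold (SE, adjusted p = 0.055 by edgeR) and passed it with the recipient as a block (-1.24, adjusted p = 1.12e-05). The 5 secretory-like calls kept their direction in each of 15 alternatives, and all 5 passed the threshold with the cells clustered without the 10 genes. Without cluster 3, which scored next highest for hillock markers and held 498 and 76 donor-derived cells, an alternative added after seeing the data, 1 of the 5 remained called, Sftpd, and the other 4 had adjusted p-values of 0.0504 to 0.396.

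**Figure D3:**
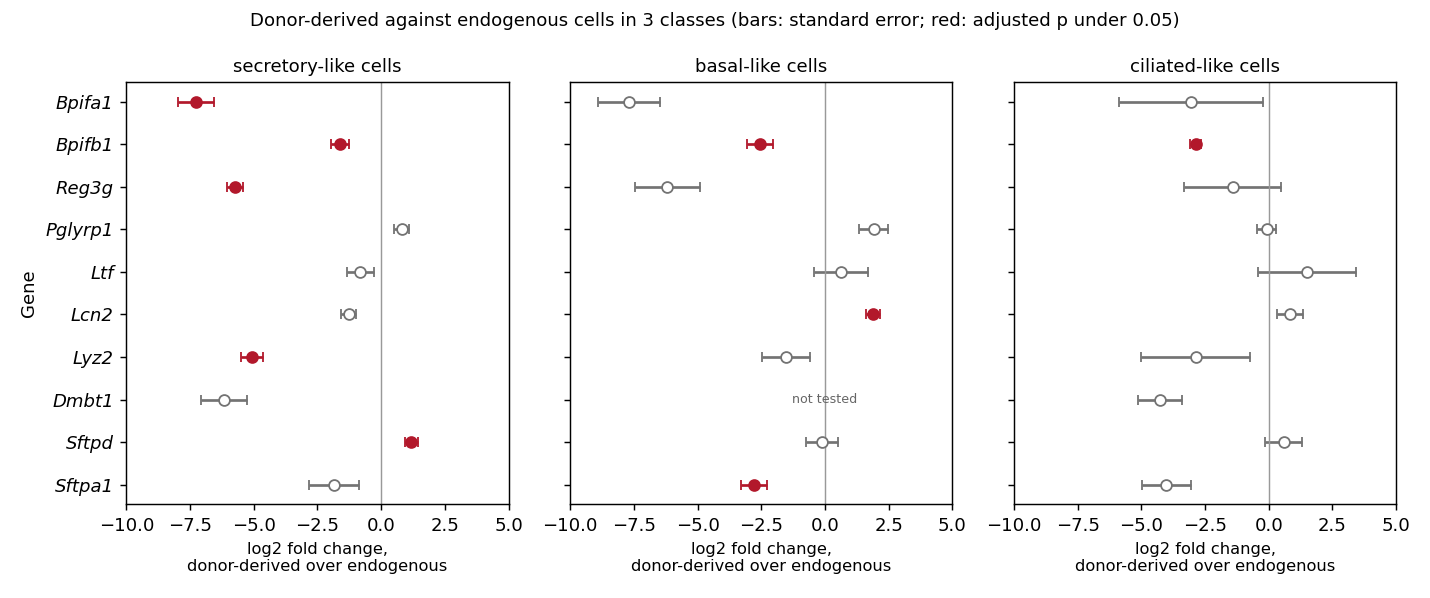
Log2 fold change of each gene, donor-derived over endogenous, in secretory-like, basal-like and ciliated-like cells (x axis), with standard errors as bars (n = 2 libraries per group). Red points passed an adjusted p of 0.05: 5 genes in secretory-like, 3 in basal-like and 1 in ciliated-like cells, and Dmbt1 was not tested in basal-like cells.

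In basal-like cells, the stem cell layer that rests on the basement membrane, most of these genes were low. Of 9 genes tested, 1 was higher in donor-derived cells, against 4.34% of the 11476 genes tested, and 2 were lower, against 6.8%. Lcn2 was the one higher, with 30.5 and 22.2 CPM in donor-derived basal-like cells, 6.88 and 5.95 CPM in endogenous ones and 13.7 CPM in the control. Its log2 fold change was 1.89 ± 0.26 (SE, adjusted p = 0.0045 by edgeR), with 0.0839 and 0.0740 without the endogenous library of day 40 or day 56. Bpifb1 (-2.54 ± 0.52, adjusted p = 0.022) and Sftpa1 (-2.79 ± 0.51, adjusted p = 0.017, both with SE and by edgeR) were lower. Their levels were 0.681 to 2.72 CPM across donor-derived and 4.76 to 18.2 CPM across endogenous libraries. The control had 4.56 CPM of Bpifb1 and 34.9 CPM of Sftpa1. Endogenous basal-like cells had 7.43 and 4.76 CPM of Bpifb1 on day 40 and day 56. Dendritic-like cells of the same libraries had 11.25 and 0.981 CPM of it, and macrophage-like cells 2.24 and 0.85 CPM. Sftpa1 was at 0 CPM in both of these classes. The part of free RNA in the Bpifb1 and Sftpa1 calls was not tested. Without the day 56 endogenous library both calls were lost (adjusted p = 0.112 for Bpifb1 and 0.149 for Sftpa1), and without the day 40 one that of Bpifb1 was (0.322). Clustering at resolution 0.5 also ended both, at 0.0514 for Bpifb1 and 0.0704 for Sftpa1.

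Bpifa1 had 2.16 and 0.184 CPM in donor-derived basal-like cells, 311 and 101 CPM in endogenous ones and 1990 CPM in the control, where the median cell had 0.834 UMIs per 10000 and the highest 805. The change of -7.68 ± 1.21 missed the threshold (SE, adjusted p = 0.056 by edgeR) and passed it with the recipient as a block (adjusted p = 3.01e-05). Reg3g had 5.67 and 0.276 CPM in donor-derived basal-like cells, 261 and 110 CPM in endogenous ones and 34.9 CPM in the control, with a change of -6.18 ± 1.26 (SE, adjusted p = 0.095 by edgeR, 0.0140 with the block). For comparison, T or NK-like cells of the endogenous libraries had 46.9 and 61.8 CPM of Bpifa1 and 26.8 and 16.6 CPM of Reg3g. Pglyrp1 had 412 and 152 CPM in donor-derived basal-like cells, against 66.4 and 71.0 CPM in endogenous ones, and was not called (adjusted p = 0.17 by edgeR). Sftpd, Ltf and Lyz2 overlapped between the groups, and Dmbt1 did not reach the count filter.

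**Figure D4:**
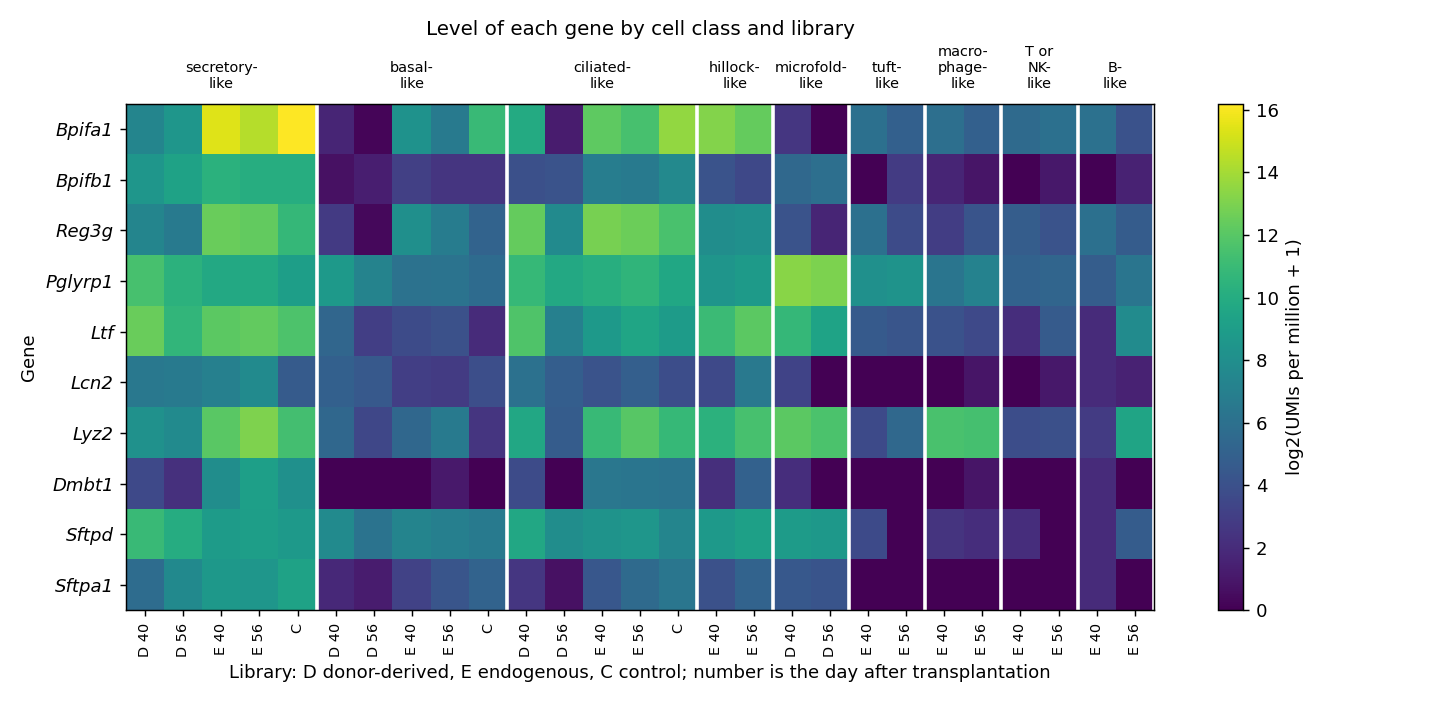
Level of each gene, as log2(CPM + 1), by cell class and library, for 9 classes in the libraries that held at least 20 of their cells (D donor-derived, E endogenous, C control, with the day). Bpifa1 is brightest in endogenous and control secretory-like cells, Pglyrp1 in donor-derived microfold-like cells, and Reg3g in endogenous secretory-like cells and in ciliated-like cells of the endogenous libraries and of donor-derived day 40.

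In ciliated-like cells, which move the mucus that carries these proteins, Reg3g had 5234 and 211 CPM in donor-derived cells, 7489 and 6163 CPM in endogenous ones and 3034 CPM in the control. The donor-derived libraries of day 40 and day 56 lay far apart, and the change of -1.41 ± 1.90 was not called (SE, adjusted p = 0.77 by edgeR). Of the day 40 UMIs, 43.8% came from 10 of 41 cells that lay in endogenous-type clusters, of which 5 had an EGFP UMI. On day 56 all 308 Reg3g UMIs came from 1 of 117 cells. Among the other 31 day 40 cells, 11 had a Reg3g UMI, at 4133 CPM over the 31.

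Bpifb1 was the single ciliated-like call, with 14.7 and 16.4 CPM in donor-derived cells, 114 and 101 CPM in endogenous ones and 195 CPM in the control (-2.86 ± 0.21, SE, adjusted p = 0.00057 by edgeR). It was called in each of 14 alternatives. Few cells carried it: a Bpifb1 UMI was found in 7.32% and 3.42% of donor-derived ciliated-like cells, 7.79% and 6.70% of endogenous ones and 7.14% in the control. The upper quartile was 0 in all 5 libraries, and single cells reached 43.7 and 20.7 UMIs per 10000 in the endogenous ones. In the clustering that left the 10 genes out, the donor-derived ciliated-like cluster stood at 6.86 and 16.0 CPM of Bpifb1. Among endogenous cells, 2 ciliated-like clusters had at least 20 cells in each endogenous library. With 125 and 115 cells, 1 stood at 14.9 and 1.44 CPM, and the other, with 94 and 63 cells, at 1.21 and 3.04 CPM. Of these endogenous values, only the 14.9 CPM of day 40 lay above the donor-derived value of the same day. On day 56 both endogenous clusters lay below the donor-derived one. Both endogenous clusters also lay far below the class levels, so most endogenous Bpifb1 UMIs of the class came from cells outside them. The part of secretory cells in the ciliated-like Bpifb1 call was not tested. The share of genes called lower was 1.93% of 10513 and the share called higher 1.92%, against 1 and 0 of the 10 genes. At an unadjusted p under 0.05, 3 of the 10 were lower and 0 higher, and DESeq2 called 2 lower and 0 higher. The shares of all genes at that threshold and by DESeq2 are not given here. These counts can therefore not be read against the shares above. Sftpa1, with 4.89 and 0.684 CPM in donor-derived cells, against 20.2 and 48.0 CPM in endogenous ones, missed the threshold (-4.01 ± 0.95, SE, adjusted p = 0.12 by edgeR) and passed it with the block (0.0172). Bpifa1 was measured in this class too, at 955 and 1.37 CPM in donor-derived ciliated-like cells, 4558 and 2899 CPM in endogenous ones and 12325 CPM in the control, with a UMI in 12.2%, 0.855%, 51.1%, 34.0% and 71.4% of them. In the endogenous libraries the median cell had 0.526 and 0 UMIs per 10000 and the highest 708 and 1059, and the tenth of cells with most Bpifa1 held 99.1% and 99.4% of the UMIs. Of the same 2 endogenous clusters built without the 10 genes, the larger stood at 338 and 55.5 CPM of Bpifa1 and the other at 62.8 and 35.0 CPM. T or NK-like cells had 46.9 and 61.8 CPM of it. Here too most endogenous UMIs of the class came from cells outside these clusters.

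The difference between secretory-like and basal-like responses was tested as an interaction, which called 3 of the 10 genes, against 4.88% of 12147 genes tested. For Lcn2 the donor-derived over endogenous change in secretory-like cells minus that in basal-like cells was -3.09 ± 0.46 (log2, SE, adjusted p = 0.033 by edgeR). The interaction was -1.0 ± 0.20 for Pglyrp1 (adjusted p = 0.0063) and -1.26 ± 0.30 for Ltf (adjusted p = 0.025, both with SE and by edgeR). Clustering without the 10 genes left 1 of the 3 called, Pglyrp1, with 0.0545 for Lcn2 and 0.129 for Ltf. Without the endogenous library of day 40 or day 56, the calls of Pglyrp1 (0.0869 and 0.117) and Ltf (0.239 and 0.194) were lost.

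Cells also differed within the secretory-like class. In donor-derived cells of day 40, leaving out the 4 cells, Pglyrp1 had a median of 19.0 UMIs per 10000 (quartiles 11 and 32.7) and Ltf a median of 44.2 (quartiles 15.2 and 81.6). On day 56 the medians were 9.32 for Pglyrp1 and 3.89 for Ltf. In endogenous cells the medians of Pglyrp1 were 6.06 and 6.72, and those of Ltf 11.1 and 31.9, on day 40 and day 56. Ltf and Pglyrp1 were both detected in 96.4% of the 643 donor-derived cells of day 40 and in 78.0% of 309 endogenous cells of that day. Bpifa1 and Reg3g were both detected in 0.467% of those donor-derived cells and 85.1% of those endogenous cells. Clusters built without the 10 genes divided the endogenous class: 1 cluster had 1585 and 1273 CPM of Bpifb1 and 288 and 654 CPM of Dmbt1 on day 40 and day 56, and the other 8.57 and 1.47 CPM of Bpifb1 and 1.43 and 0 CPM of Dmbt1. Bpifa1 was at 47680 and 22030 CPM in the cluster with Bpifb1 and at 17910 and 12700 CPM in the cluster without it, so that Bpifa1 was high in both and Bpifb1 and Dmbt1 in 1 of them.

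**Figure D5:**
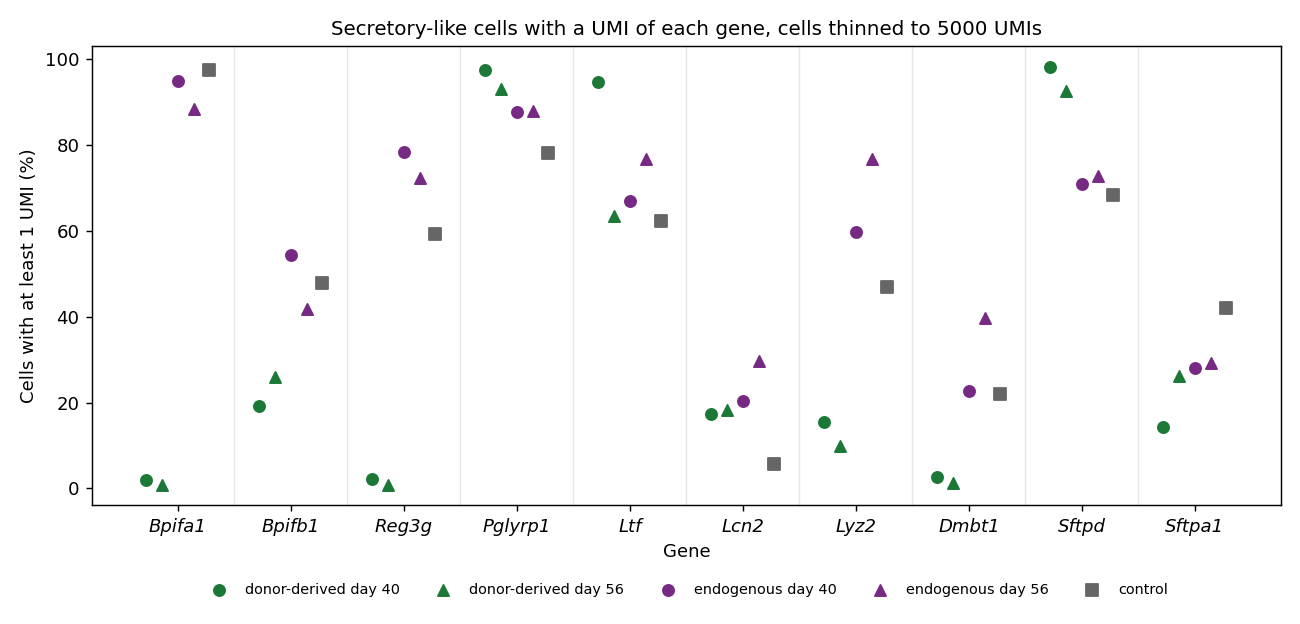
Share of secretory-like cells with at least 1 UMI of each gene (%), after thinning each cell to 5000 UMIs, with 1 point per library. Bpifa1 was found in 1.90% and 0.870% of donor-derived cells, 95% and 88.4% of endogenous ones and 97.5% in the control, and Pglyrp1 in 97.5% and 93.0% of donor-derived cells.

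Microfold-like cells, the antigen-sampling epithelial cells marked by Spib and Gp2, numbered 220 and 28 in the donor-derived libraries, against 9 and 7 in those of endogenous cells and 0 in the control. Pglyrp1 stood at 10266 and 8338 CPM in these donor-derived cells and was found in every one of them. Lyz2 stood at 4410 and 3083 CPM there, with a UMI in 81.8% and 64.3% of cells, and these cells supplied 82.5% of all epithelial Lyz2 UMIs of the day 40 donor-derived library while making up 13.1% of its epithelial cells. Ltf had 1777 and 665 CPM and Bpifa1 4.8 and 0 CPM (0 of 462837 UMIs on day 56, which allows up to 6.48 CPM). The 8 macrophage markers summed to 35.0 and 17.3 CPM in them, with C1qa, C1qb, C1qc, Adgre1, Csf1r and Mrc1 at 0 on both days. Macrophage-like cells of the endogenous libraries had 2967 and 2784 CPM of Lyz2. The part of macrophage RNA was not tested, and with under 20 such cells in each endogenous library no comparison was tested.

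Hillock-like cells, the layered Krt13-positive cells of the trachea, numbered 8 and 3 in the donor-derived and 131 and 110 in the endogenous libraries. The endogenous ones had 9525 and 5242 CPM of Bpifa1, 2112 and 4531 CPM of Ltf and 1333 and 2882 CPM of Lyz2. These levels came from a part of the cells. On day 40 and day 56 the medians were 0.875 and 0 UMIs per 10000 for Bpifa1, 0 and 0.262 for Ltf and 0 and 0 for Lyz2. The tenth of cells with most of a gene held 83.4% and 81.9% of the Bpifa1 UMIs, 87.9% and 60.6% for Ltf and 93.8% and 79.2% for Lyz2. With the cells clustered without the 10 genes the hillock-like name also went to the cluster of the 178 donor-derived cells named above. Of the hillock markers, only Ecm1 was among the 10 leading genes of that cluster. Krt13, Krt6a and Krt4, which were among those of the endogenous hillock-like cluster, were not. Those donor-derived cells had 3020 CPM of Pglyrp1 and 7086 CPM of Ltf, and whether they are hillock cells was not tested. Tuft-like cells of the endogenous libraries had 285 and 317 CPM of Pglyrp1 and 0 CPM of Lcn2, Dmbt1 and Sftpa1.

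Against the control, endogenous secretory-like cells of the recipients had more Reg3g and Lcn2. With 1 control library this has no test, and a gene was counted where both recipients lay at least 2-fold from the control. By that rule 2 of the 10 genes were higher, against 1.22% of 4018 genes of at least 20 CPM, and 0 of the 10 were lower, against 0.0249%. Reg3g lay 3.28-fold and 2.88-fold above the control on day 40 and day 56, and Lcn2 5.11-fold and 8.24-fold (with 2 CPM added). The control levels were 1729 CPM for Reg3g (95% Poisson interval 1692 to 1766) and 24.5 CPM for Lcn2 (20.3 to 29.4), intervals that cover counting error only. Lyz2 was 1.60-fold and 3.35-fold and Pglyrp1 1.61-fold and 1.69-fold above the control. Bpifa1 was at 0.580 and 0.286 times the control level and Sftpa1 at 0.627 and 0.550 times, and neither was below it by 2-fold in both recipients. In ciliated-like cells Reg3g was likewise 2.47-fold and 2.03-fold above the control, and Bpifa1 was at 0.370 and 0.235 times the control level. In basal-like cells, with 69 in the control, Reg3g lay 7.13-fold and 3.04-fold above the control and Lyz2 6.60-fold and 14.8-fold, while Bpifa1 was at 0.157 and 0.0518 times the control level. That Bpifa1 level came mostly from few control cells, with an upper quartile of 1.54 and a highest of 805 UMIs per 10000. The endogenous upper quartiles were 1.11 and 0.774, and the control level of Lyz2 was only 4.56 CPM. The control trachea was not sorted on GFP and was from a mouse without injury, so that injury, transplantation and gate cannot be told apart.

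The genes whose levels were most like those of the members were found over 30 sums of class and library, which share libraries and free RNA. Sftpd was most like Reep6, Cp and Muc1 (Pearson r = 0.939, 0.936 and 0.928), and Pglyrp1 most like Pigr, Mmp15 and Nupr1 (0.937, 0.913 and 0.911). Ltf was most like Scgb1a1, the main club cell secretoglobin, and the mucin Muc5b (0.930 and 0.898). Muc5b was also the gene most like Bpifb1 (0.888), with Sftpa1 next (0.876). Reg3g was most like A2ml1 and Cyp2a5 (0.909 and 0.867) and Bpifa1 most like Slc16a11 and Pon1 (0.844 and 0.843). Lyz2 had the weakest likeness, with Kctd14 at 0.728. Among the 10, Bpifb1 and Sftpa1 were the pair most alike (0.876) and Bpifa1 and Pglyrp1 the least (0.108).

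Genes of 6 further lists around mucosal defence were tested in the same fits. Counts of such small lists are read beside the shares of all genes called in each direction: 8.65% lower and 7.09% higher in secretory-like cells, 6.8% and 4.34% in basal-like cells and 1.93% and 1.92% in ciliated-like cells. These shares are for edgeR at the adjusted threshold, and none is given for an unadjusted p or for DESeq2. None of 12 other BPI fold genes reached the count filter in the 3 classes, so that neither edgeR nor DESeq2 tested one, and their levels summed to at most 1.52 CPM in any library of those classes. Of 18 peptides, chelators and antiproteases, 8, 6 and 5 were tested in secretory-like, basal-like and ciliated-like cells. The calls were 2 lower in secretory-like cells (Defb1 and Ccl28), 2 lower in basal-like cells (Defb1 and Wfdc2) and 0 in ciliated-like cells, where 0 passed an unadjusted p under 0.05 and 0 passed by DESeq2. Defb1, a beta-defensin, had 111 and 85.0 CPM in donor-derived basal-like cells, against 211 and 283 CPM in endogenous ones (-1.45 ± 0.20, SE, adjusted p = 0.0050 by edgeR). Wfdc2, a whey acidic protein-domain antiprotease, had 1722 and 1839 CPM in donor-derived basal-like cells, against 4320 and 4099 CPM in endogenous ones (-1.37 ± 0.10, SE, adjusted p = 0.00035 by edgeR). In secretory-like cells Wfdc2 had 9424 and 8678 CPM in donor-derived libraries, against 6208 and 5575 CPM in endogenous ones, and was not called (adjusted p = 0.60).

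Of 16 other lectins, lysozymes and surfactant proteins, 9 were tested in secretory-like cells and 2 were called lower, Reg1 and Itln1. Itln1, a lectin that binds microbial sugars, had 1.22 and 0.247 CPM in donor-derived secretory-like cells, against 13.4 and 9.45 CPM in endogenous ones. In basal-like cells 4 were tested with 0 called, 0 at an unadjusted p under 0.05 and 0 by DESeq2, and in ciliated-like cells 5 were tested with 0 called, 2 higher at an unadjusted p under 0.05 and 0 by DESeq2. Of 10 complement genes, 6, 5 and 6 were tested in secretory-like, basal-like and ciliated-like cells. Cd55 was called higher in both secretory-like and basal-like cells, and C4b in ciliated-like cells. Cd55, which protects cells from complement, had 218 and 140 CPM in donor-derived secretory-like cells, against 71.3 and 74.1 CPM in endogenous ones (0.91 ± 0.16, SE, adjusted p = 0.0067 by edgeR). In basal-like cells it had 159 and 143 CPM in donor-derived libraries, against 31.4 and 25 CPM in endogenous ones (2.29 ± 0.16, SE, adjusted p = 0.00027 by edgeR).

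Of 8 genes of antibody transport and oxidants, 2 were tested in secretory-like cells, with 0 called by edgeR, 1 higher at an unadjusted p under 0.05 and 1 higher by DESeq2. Pigr, the antibody transporter, had 1789 and 1246 CPM in donor-derived secretory-like cells, against 937 and 922 CPM in endogenous ones (adjusted p = 0.34 by edgeR). Duox1 and its maturation factor Duoxa1 were lower in basal-like cells, at 0.461 to 1.20 CPM across donor-derived and 3.57 to 22.9 CPM across endogenous libraries. In ciliated-like cells 1 was tested, with 0 called by edgeR, at an unadjusted p under 0.05 or by DESeq2.

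Of 24 genes for interleukin 17, interleukin 22, Toll-like receptor and NF-kappaB inputs, 23 were tested in secretory-like cells, with 2 higher (Il1rn and Tlr3) and 3 lower (Tlr5, Nfkbiz and Spdef), counts that lie near the shares of all genes called. In basal-like cells 22 were tested with Nfkbiz lower, and in ciliated-like cells 19 with Nfkbia higher and Nfkbiz lower. Nfkbiz encodes IkappaB-zeta, a cofactor of NF-kappaB needed for induction of Lcn2 among other genes. It had 28.8 and 15.2 CPM in donor-derived secretory-like cells, 32.8 and 41.0 CPM in endogenous ones and 17.4 CPM in the control (-1.13 ± 0.26, SE, adjusted p = 0.033 by edgeR). In basal-like cells it had 16.7 and 15.1 CPM in donor-derived libraries, 43.8 and 43.6 CPM in endogenous ones and 42.5 CPM in the control (-1.59 ± 0.17, SE, adjusted p = 0.0013 by edgeR). In ciliated-like cells it had 47.6 and 39.0 CPM in donor-derived libraries, 68.8 and 80.6 CPM in endogenous ones and 37.0 CPM in the control (-0.91 ± 0.20, SE, adjusted p = 0.042 by edgeR). The control thus lay near the endogenous level in basal-like cells and near the donor-derived level in ciliated-like cells. Nfkbia, which encodes the NF-kappaB inhibitor IkappaB-alpha, had 281 and 210 CPM in donor-derived ciliated-like cells, against 96.7 and 104 CPM in endogenous ones (1.19 ± 0.20, SE, adjusted p = 0.015 by edgeR). Il17ra, an interleukin 17 receptor chain, had 5.79 and 6.30 CPM in donor-derived secretory-like cells, against 5.43 and 3.59 CPM in endogenous ones (adjusted p = 0.94 by edgeR).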

How the data were processed

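Each library was deposited as whole-number UMI counts by gene and barcode, according to the file headers and values; features came from a combined human and mouse reference with EGFP and mCherry. Per the submitters' processing notes, the authors' tools were Seurat, STARsolo and Cell Ranger, with builds GRCh38 and GRCm38; the sources used here do not give how barcodes were called. Barcodes were removed for over 10% human UMIs (192, all in the control), for under 500 genes or over 20% mitochondrial UMIs (38) and as Scrublet doublets (48). Libraries shared at most 2 barcodes. Counts scaled to 10000 per cell were clustered (2000 variable genes, 30 components, 15 neighbours, Leiden resolution 1.0, 24 clusters; Python 3.11.15, scanpy 1.11.5, anndata 0.12.19, leidenalg 0.10.2, numpy 2.4.6, scipy 1.17.1, scikit-learn 1.9.0, pandas 2.3.3; figures with matplotlib 3.10.9). Each cluster took the class with the highest mean marker score among classes with at least 3 detected markers. Clusters that scored highest for goblet markers were counted as secretory-like. A name also needed at least 1 marker of the class among the 10 leading genes, or 2 for non-epithelial classes. For secretory-like clusters, goblet markers counted too.

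Sums per library and class were tested with edgeR 4.0.16 (R 4.3.3; filterByExpr, TMM and robust quasi-likelihood fits; p-values adjusted by Benjamini-Hochberg over all genes tested, threshold 0.05), with code checked on simulated data. SE is the size of the log2 fold change over the square root of F. The class difference was tested as an interaction with library as a fixed term. DESeq2 1.42.0 was an alternative. The design text gives 1 recipient per day, so the libraries of a day are paired by animal; the day 40 minus day 56 differences of both groups correlated across genes at 0.11, 0.22 and -0.04 in secretory-like, basal-like and ciliated-like cells. Each p-value rests on 2 libraries per group, which also differ in day. Replicate libraries differed beyond sampling noise. The simulated replicates held no difference of day, so the check of the code does not give the error rate at the spread of these libraries. Poisson intervals are at 95%, and a count of 0 allows up to 3 counts; both cover counting error only.

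Named genes are the 10 members, up to 3 called genes per list, class and direction with the largest change at a mean of at least 20 CPM, and the 3 genes most like each member. Other list genes were named after their values were seen. The result of 1 complement gene is not reported here. The members, lists and tests were chosen with earlier results of these data known. Coordinates are from GENCODE on GRCm38.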

Additional observations from a re-analysis of the deposited data

Results flagged for a closer look

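Lcn2, Pglyrp1 and Ltf are listed because their donor-derived over endogenous change differed between secretory-like and basal-like cells in the test of the interaction (edgeR, n = 2 libraries per group). The difference, secretory-like minus basal-like, was -3.09 for Lcn2 (changes of -1.27 and 1.89 in these classes, adjusted p = 0.0327), -1.0 for Pglyrp1 (0.81 and 1.91, adjusted p = 0.00626) and -1.26 for Ltf (-0.81 and 0.64, adjusted p = 0.0254). Over 13 alternatives the call held in 11 for Lcn2, 8 for Pglyrp1 and 7 for Ltf, and the adjusted p reached at most 0.126, 0.559 and 0.755. Ltf stood at 39.5 and 7.0 CPM in donor-derived basal-like cells, against 11.8 and 15.5 CPM in endogenous ones, and T or NK-like cells, which should lack it, had 3.35 and 24.3 CPM.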

How the results depend on the processing

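Of the 12 calls among the 10 genes in the 3 classes and the interaction, 11 kept their direction under each alternative; the exception was Ltf in the interaction, at 1.05 and 1.07 with clustering at resolution 0.5 and 2.0. Where a value changed its call or direction the cause was not tested. Without the filter on low counts, 2809 genes were called in secretory-like cells (1753 with it), 2449 in basal-like (1278) and 791 in ciliated-like cells (405). Members called were 5 in secretory-like cells, with 7 by DESeq2 (1 higher, 6 lower), 4 with clustering at resolution 0.5 or 2.0 or the stricter cell filter and 1 without the cluster next highest for hillock markers. In basal-like cells they were 3, with 2 at resolution 0.5, 6 by DESeq2, 8 without the filter and 5 with the recipient as a replicate block. In ciliated-like cells they were 1, with 2 by DESeq2 and 2 with the block. In the interaction they were 3, with 1 each when clustered without the members or at resolution 0.5 or 2.0, 5 with total UMIs only and 0 without the cluster next to hillock. For most of these settings, DESeq2 among them, the number of all genes called is not given here. A change in members called there cannot be told apart from a change over all genes. With the block 2407 genes were called in secretory-like and 1873 in basal-like cells; Lcn2 in secretory-like, Bpifa1 and Reg3g in basal-like and Sftpa1 in ciliated-like cells gained a call, and it changed no other call of a member.

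With 1 library left out, the genes called ranged from 708 to 3256 in secretory-like, 259 to 2188 in basal-like and 50 to 2110 in ciliated-like cells, and the members called from 3 to 6, 0 to 6 and 1 to 6, and from 2 to 6 in the interaction. Among values that were not called, these left-out values ranged over both signs for Ltf in basal-like (-1.07 to 1.43) and ciliated-like cells (-2.23 to 2.46), Sftpd in basal-like (-1.10 to 0.47) and ciliated-like cells (-0.62 to 1.25), Pglyrp1 in ciliated-like cells (-0.74 to 0.37), and Bpifa1 (-1.51 to 3.25), Reg3g (-0.39 to 3.33) and Sftpa1 (-1.02 to 2.16) in the interaction. Resolution 0.5 and 2.0 gave -1.95 and -1.71 for Ltf in basal-like cells, and total UMIs only 0.01 for both Sftpd in basal-like and Pglyrp1 in ciliated-like cells. Without the cells in clusters of the other group the interaction was -6.15 for Bpifa1 and -0.02 for Reg3g. This alternative and the one on the hillock cluster were chosen after seeing the data. The donor-derived ciliated-like sums rest on 41 and 117 cells and 818741 and 1463034 UMIs, where a count of 0 allows up to 3.66 and 2.05 CPM.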
